A study of Caenorhabditis elegans with 6 samples.

Results

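The genes described here encode the outer kinetochore and the spindle checkpoint of the nematode Caenorhabditis elegans. They are 10 genes given by name, knl-1, knl-3, mis-12, ndc-80, him-10, bub-1, bub-3, mdf-1, mdf-2 and san-1, of 14605 worm genes in the deposited count table, and all 10 were found there. Messenger RNA was measured in intestinal cells (3 libraries) and in non-intestinal cells that divide in the first larval stage, called L1 (3 libraries). Cells of both groups were sorted with a 4N DNA content and pooled, 500 cells to a library. All 6 libraries, intestinal or not, came from animals with the ccyIS27 transgene. In it elt-2p, the promoter of a gene of intestinal cells, drives mCherry-PH, a red fluorescent membrane marker, joined through a P2A peptide to the histone marker H2B-mCherry. No other group was analysed here. Each library was a bulk pool made by an adapted CEL-seq protocol, which reads the 3′ end of transcripts, so that fewer cells of a type and less RNA per cell cannot be told apart.

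The kinetochore is the protein assembly that joins a chromosome to spindle microtubules. Its outer layer holds the KNL-1 scaffold, the MIS-12 complex that links it to centromeric chromatin, and the NDC-80 complex that binds microtubules. Unattached kinetochores recruit BUB-1 and BUB-3 and the MDF-1, MDF-2 and SAN-1 proteins, which form the checkpoint signal that holds back the anaphase promoting complex until chromosomes are attached. C. elegans chromosomes are holocentric, with kinetochores along their length. Intestinal nuclei of the larva go through a nuclear division without cytokinesis in L1, whereas the comparison cells divide.

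Library depth lay between 1222704 and 21040813 counts of worm genes, and replicate 3 was the shallowest in each group. The gene elt-2 had 42.4, 38.0 and 59.1 CPM (counts relative to library size, scaled by the trimmed mean of M-values, TMM) in intestinal replicates 1, 2 and 3, against 0.159, 1.72 and 0 CPM in non-intestinal replicates 1, 2 and 3. Its edgeR log2 fold change of 5.81 ± 1.10 (standard error, adjusted p = 0.0046) had the direction the labels give. The 8 intestinal markers summed to between 6020 and 6810 CPM in intestinal libraries and to between 42.4 and 166 CPM in non-intestinal libraries. The early endoderm gene end-3 was among them and had 0 counts in every intestinal library. In non-intestinal replicates 1, 2 and 3 it had 0, 0 and 10 counts. P-values are from the quasi-likelihood test of edgeR with Benjamini-Hochberg adjustment over 9203 tested genes, and genes with an adjusted p under 0.05 are termed called.

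The outer kinetochore and checkpoint transcripts were scarcer in intestinal libraries. Summed over the 10 genes they came to 93.3, 198 and 61.5 CPM in intestinal replicates 1, 2 and 3, against 616, 800 and 956 CPM in non-intestinal replicates 1, 2 and 3, so the sums did not overlap between the groups. The checkpoint genes bub-3 and mdf-2 weighed most in these sums. They averaged 42.8 and 32.8 CPM in the intestinal group and 337 and 192 CPM in the non-intestinal group. All 10 genes were tested. Log2 fold changes were negative for 10 of them, and 4, knl-1, knl-3, bub-1 and bub-3, were called lower in intestinal cells while 0 were called higher. Of all tested genes 21.2% were called, 7.64% as lower and 13.5% as higher, and 57.2% had a value below 0. The median log2 fold change of the 10 genes was −2.997, beside −0.34 over all tested genes. CPM did not overlap between the groups for 8 of the 10, where 23.5% of all tested genes were lower without overlap. The genes whose groups overlapped were ndc-80 and mdf-1.

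**Figure D1:**
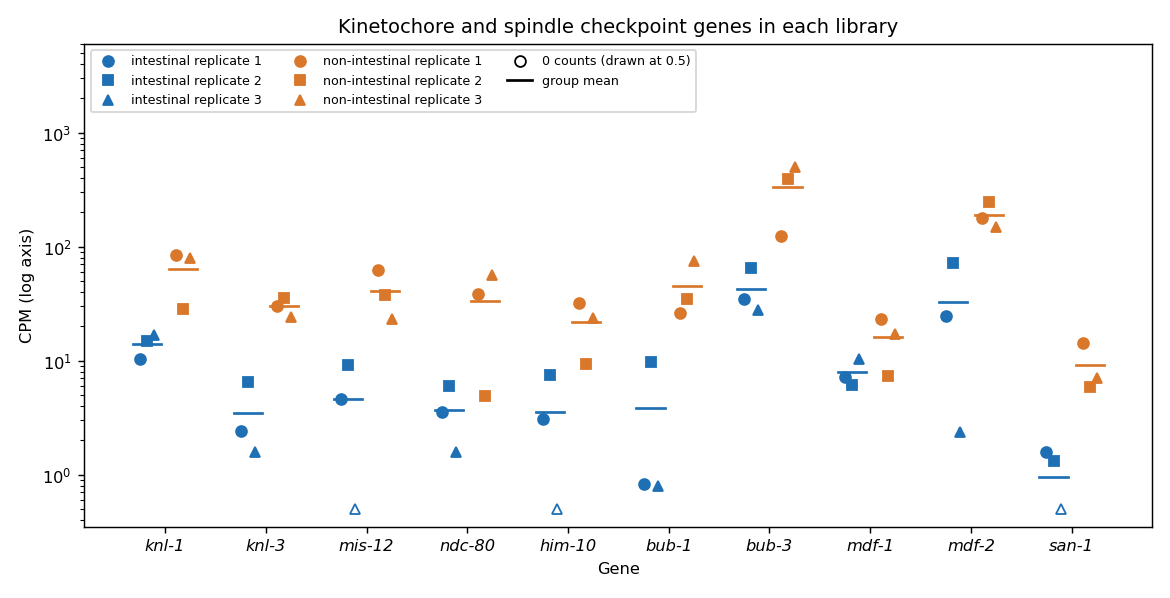
Level of each of the 10 genes in each library, in CPM on a log axis, with intestinal libraries to the left of non-intestinal libraries. Lines are group means and open symbols are libraries with 0 counts. A reader should see that intestinal symbols lie below the non-intestinal ones for 8 genes, while ndc-80 and mdf-1 overlap through non-intestinal replicate 2.

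The scaffold gene knl-1 (C02F5.1, WBcel235 chromosome III, 8250632 to 8253943, plus strand, 7 exons) encodes the protein on which the outer kinetochore is built and to which BUB-1 and protein phosphatase 1 dock. It had 10.4, 14.8 and 16.8 CPM in intestinal replicates 1, 2 and 3, against 84.9, 28.5 and 79.7 CPM in non-intestinal replicates 1, 2 and 3. The groups did not overlap, and non-intestinal replicate 2 lay nearest to the intestinal libraries. Intestinal cells held 21.7% of the non-intestinal mean, and knl-1 fell by 2.21 ± 0.68 on the log2 scale (standard error, adjusted p = 0.041 by edgeR). Leaving out any 1 of the 6 libraries ended this call, with edgeR adjusted p from 0.058 to 0.21. Among the 10 genes knl-1 had the narrowest spread between intestinal libraries, with a highest value 1.62 times the lowest.

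The MIS-12 complex anchors KNL-1 and NDC-80 to the inner kinetochore, and 2 of its subunit genes belong here. Its subunit gene knl-3 (T10B5.6, chromosome V, 1869213 to 1870558, plus strand, 3 exons), the counterpart of human DSN1, had 2.40, 6.49 and 1.60 CPM in intestinal replicates 1, 2 and 3, against 30.2, 35.7 and 24.4 CPM in non-intestinal replicates 1, 2 and 3. Every non-intestinal library was at least 3.76 times the highest intestinal one. The gene fell by 3.03 ± 0.83 on the log2 scale (standard error, adjusted p = 0.025 by edgeR), a mean level 11.6% of the non-intestinal one. The call was lost without intestinal replicate 1 (edgeR adjusted p = 0.11), non-intestinal replicate 1 (0.074) or non-intestinal replicate 2 (0.087).

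The complex's name-giving gene mis-12 (Y47G6A.24, chromosome I) had 56, 160 and 0 counts in intestinal replicates 1, 2 and 3, which is 4.64, 9.19 and 0 CPM, against 62.1, 38.1 and 23.3 CPM in non-intestinal replicates 1, 2 and 3. The groups were apart, although the gene's log2 fold change of −3.05 ± 1.02 missed the threshold (standard error, adjusted p = 0.055 by edgeR). With the replicate number as a block it was called, at −3.54 (edgeR adjusted p = 0.023). Leaving out single libraries gave it an edgeR adjusted p from 0.04, without non-intestinal replicate 3, up to 0.16. The 2 subunit genes thus had log2 fold changes of −3.03 and −3.05, and their ratio within each library is given below.

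NDC-80 and HIM-10, the counterpart of human NUF2, form the microtubule-binding head of the NDC-80 complex. Transcripts of ndc-80 (W01B6.9, chromosome IV, 10086137 to 10088437, plus strand, 8 exons) stood at 3.56, 5.97 and 1.60 CPM in intestinal replicates 1, 2 and 3, against 38.1, 4.94 and 56.9 CPM in non-intestinal replicates 1, 2 and 3. Non-intestinal replicate 2 lay inside the intestinal range, 11.5 times below the highest library of its group. The log2 fold change was −3.08 ± 0.999 (standard error, adjusted p = 0.0501 by edgeR), just outside the threshold, and without non-intestinal replicate 2 it was −3.33 (edgeR adjusted p = 0.025). That was the 1 fit with a call among the 6 that left out 1 library. Without non-intestinal replicate 3 the log2 fold change was −2.19 (edgeR adjusted p = 0.17). With the replicate number as a block the adjusted p was 0.13.

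The partner gene him-10 (R12B2.4, chromosome III, 5803260 to 5805112, plus strand, 6 exons) had 37, 131 and 0 counts in intestinal replicates 1, 2 and 3, or 3.07, 7.52 and 0 CPM, against 32.1, 9.42 and 23.8 CPM in non-intestinal replicates 1, 2 and 3. Again non-intestinal replicate 2 was the lowest of its group, 1.25 times the highest intestinal library. The log2 fold change of −2.50 ± 1.09 did not pass the threshold (standard error, adjusted p = 0.13 by edgeR).

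BUB-1 is a kinase that sits on KNL-1 and recruits checkpoint proteins, and BUB-3 is the propeller protein that accompanies it. The gene bub-1 (R06C7.8, chromosome I) had 10, 171 and 1 counts in intestinal replicates 1, 2 and 3, which is 0.829, 9.82 and 0.799 CPM, against 26.4, 35.02 and 74.3 CPM in non-intestinal replicates 1, 2 and 3. The groups were apart, and intestinal replicate 2 stood 12.3 times above the lowest library of its group. The gene fell by 3.45 ± 1.06 on the log2 scale (standard error, adjusted p = 0.041 by edgeR), the most negative value of the 10. Without intestinal replicate 2 the log2 fold change was −5.72 (edgeR adjusted p = 0.0063). Leaving out any of the other 5 libraries ended the call, with edgeR adjusted p from 0.051 to 0.12.

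Transcripts of bub-3 (Y54G9A.6, chromosome II, 13726062 to 13729610, plus strand, 3 exons) reached 35.1, 65.4 and 28.0 CPM in intestinal replicates 1, 2 and 3, against 124, 389 and 499 CPM in non-intestinal replicates 1, 2 and 3. Even the lowest non-intestinal library was 1.90 times the highest intestinal one. The gene averaged 42.8 ± 19.9 CPM in the intestinal group and 337 ± 193 CPM in the non-intestinal group (SD, n = 3 each) and fell by 2.97 ± 0.64 on the log2 scale (standard error, adjusted p = 0.0090 by edgeR). Of the 10 genes it alone stayed called whichever of the 6 libraries was left out, and its log2 fold change ranged from −3.39 to −2.42 and its edgeR adjusted p up to 0.045.

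MDF-1 and MDF-2 are the worm counterparts of MAD1 and MAD2, the pair that templates the checkpoint signal at unattached kinetochores. The gene mdf-1 (C50F4.11, chromosome V, 9541782 to 9544226, minus strand, 5 exons) had 7.21, 6.15 and 10.4 CPM in intestinal replicates 1, 2 and 3, against 23.4, 7.34 and 17.3 CPM in non-intestinal replicates 1, 2 and 3. The groups overlapped through non-intestinal replicate 2. With a log2 fold change of −1.03 ± 0.82 (standard error, adjusted p = 0.40 by edgeR) it was nearest to 0 of the 10 genes, and DESeq2 gave an adjusted p of 0.37. Intestinal cells held 49.4% of the non-intestinal mean, where the other 9 genes lay between 8.44% for bub-1 and 21.7% for knl-1.

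For mdf-2 (Y69A2AR.30, chromosome IV, 2636227 to 2641125, minus strand, 4 annotated transcripts) there were 296, 1243 and 3 counts in intestinal replicates 1, 2 and 3, or 24.5, 71.4 and 2.40 CPM, against 180, 245 and 150 CPM in non-intestinal replicates 1, 2 and 3. The intestinal libraries spread over a 29.8-fold range and the non-intestinal ones over 1.64-fold, yet the groups did not overlap. The log2 fold change was −2.52 ± 0.89 (standard error, adjusted p = 0.067 by edgeR). With the replicate number as a block the gene was called, at −3.20 (edgeR adjusted p = 0.0092). It was called in 1 of the 6 fits that left out 1 library, with edgeR adjusted p up to 0.19.

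SAN-1, the worm counterpart of MAD3, is part of the inhibitor that binds the activator of the anaphase promoting complex. Its gene san-1 (ZC328.4, chromosome I) had the fewest counts of the 10 in non-intestinal replicates 1 and 3, with 19, 23 and 0 counts in intestinal replicates 1, 2 and 3, or 1.57, 1.32 and 0 CPM, against 14.5, 5.93 and 7.05 CPM in non-intestinal replicates 1, 2 and 3. Every non-intestinal library was at least 3.77 times the highest intestinal one. The log2 fold change of −3.03 ± 1.18 did not pass the threshold (standard error, adjusted p = 0.095 by edgeR).

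**Figure D2:**
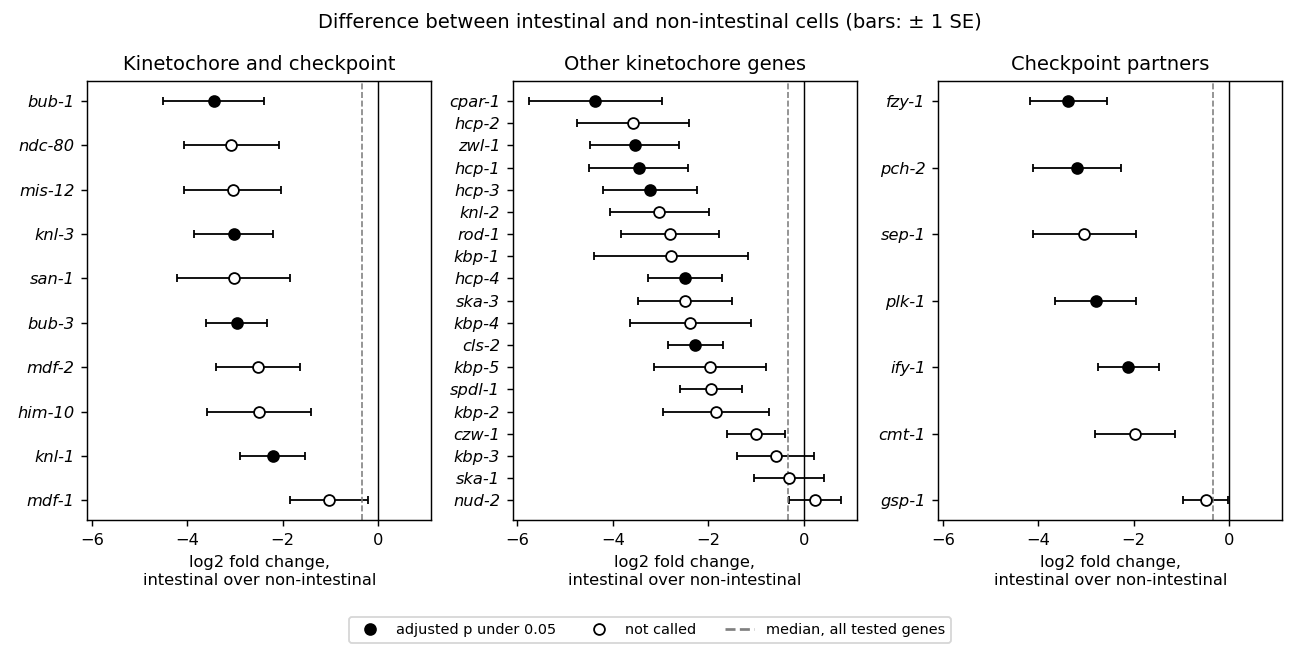
Log2 fold change of intestinal over non-intestinal cells with 1 standard error to each side, for the 10 genes, 19 further kinetochore genes and 7 checkpoint partners. Filled symbols are called genes and the dashed line is the median of all tested genes, −0.34. A reader should see that most values lie between −4 and −2, with mdf-1, czw-1, kbp-3, ska-1, nud-2 and gsp-1 nearest to 0. Values of kbp-2, kbp-5, spdl-1 and cmt-1 lie slightly above −2, and that of cpar-1 lies below −4.

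The depth of intestinal replicate 3 bounds what can be read from single libraries. There 7 of the 10 genes had at most 3 counts and 3 had 0, and 3 counts correspond to 2.40 CPM. In the other 5 libraries 0 of the 10 genes had 3 counts or fewer. Without replicate 3 of both groups 4 genes were called lower, bub-3, knl-3, mis-12 and mdf-2, so that knl-1 and bub-1 were no longer called (edgeR adjusted p = 0.067 and 0.13) and mis-12 and mdf-2 were (0.023 and 0.048). Without intestinal replicate 1 or non-intestinal replicate 1, 1 gene was called, and without intestinal replicate 3 or non-intestinal replicate 2, 2 genes were. Calls of lower levels over all tested genes, 703 of 9203 with every library, also became fewer in these fits. They were 610 of 10413 without replicate 3 of both groups, 198 of 9020 without intestinal replicate 1 and 380 of 10363 without non-intestinal replicate 1. Without intestinal replicate 3 they were 506 of 10654, and without non-intestinal replicate 2 they were 350 of 8894. The DESeq2 Wald test called 9 of the 10 lower, all but mdf-1, with 15.03% of its tested genes called lower. Under library totals in place of TMM 8 were called lower, beside 14.4% of tested genes. With the replicate number as a block 6 were called lower, beside 9.84% of tested genes.

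The 10 genes did not move together among non-intestinal libraries. Replicate 2 was the lowest library of that group for knl-1, ndc-80, him-10, mdf-1 and san-1. It was the highest for knl-3 and mdf-2. Replicate 3 held the highest level of bub-1, bub-3 and ndc-80. Among intestinal libraries replicate 2 was the highest for 7 genes and replicate 3 the lowest for 8. Exceptions to both were knl-1 and mdf-1, which were highest in replicate 3. The gene san-1 was highest in replicate 1 and, like most of the others, lowest in replicate 3.

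**Figure D3:**
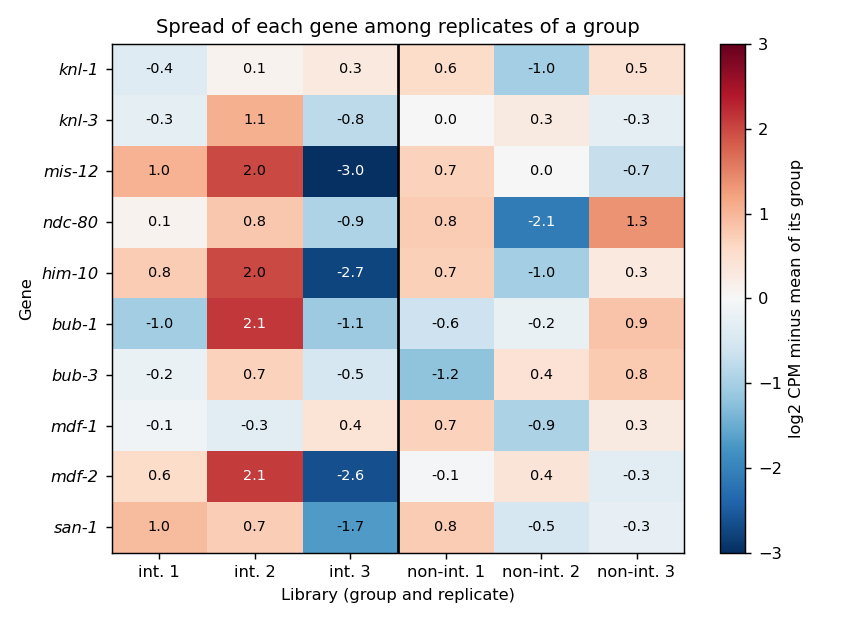
Log2 CPM of each gene in each library minus the mean of its own group, with intestinal libraries left of the line; numbers in the cells are these deviations. In non-intestinal replicate 2 ndc-80 had a deviation of −2.11, while knl-3 and mdf-2 had 0.26 and 0.39.

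Ratios of partner genes within a library do not depend on how libraries are scaled, so 4 pairs were compared. The test was an exact permutation of the library labels, two-sided, and groups of 3 allow no p below 0.1. The log2 ratio of ndc-80 to him-10 counts was 0.74 ± 1.40 in the intestinal and 0.19 ± 1.09 in the non-intestinal group (SD, n = 3 each, exact p = 0.7). That of knl-3 to mis-12 was 0.30 ± 1.77 in the intestinal and −0.36 ± 0.60 in the non-intestinal group (SD, n = 3 each, exact p = 0.8). The first difference, 0.55, was smaller than the SD of either group. The second, 0.65, was smaller than the intestinal SD and slightly larger than the non-intestinal one. With 2 counts added in place of 0.5 they were 0.11 and 0.22. Without intestinal replicate 3, where him-10 and mis-12 had 0 counts, both changed sign, to −0.25 and −0.36.

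The log2 ratio of bub-1 to bub-3 was −5.34, −2.73 and −4.57 in intestinal replicates 1, 2 and 3, against −2.23, −3.47 and −2.75 in non-intestinal replicates 1, 2 and 3. The groups overlapped and the difference of −1.40 had an exact permutation p of 0.3. For mdf-1 to mdf-2 the log2 ratio was −1.76, −3.53 and 1.95 in intestinal replicates 1, 2 and 3, against −2.94, −5.06 and −3.09 in non-intestinal replicates 1, 2 and 3. Here the intestinal library had the higher ratio for each replicate number. The difference of 2.58 had an exact permutation p of 0.3, and without intestinal replicate 3 it was 1.05. Adjusted over the 4 pairs, the exact p was 0.6 for the 2 checkpoint pairs and 0.8 for the 2 kinetochore pairs.

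**Figure D4:**
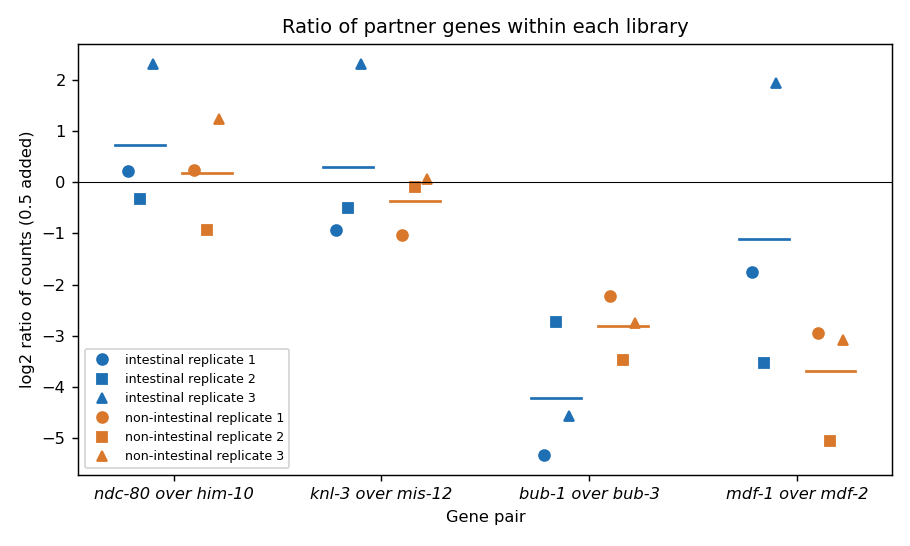
Log2 ratio of the counts of 2 partner genes in each library, with 0.5 counts added to each, for 4 pairs; lines are group means and intestinal libraries are drawn left of non-intestinal ones. For each pair the groups overlap, and intestinal replicate 3 is the highest symbol of 3 of the 4 pairs.

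The wider kinetochore was described by a list of 19 further genes, all of them tested. Values were negative for 18 of them, and 6 were called lower and 0 higher, with a median log2 fold change of −2.48. Over all tested genes 57.2% were negative, 7.64% were called lower and the median was −0.34. Among the genes of centromeric chromatin, hcp-4, the counterpart of CENP-C, fell by 2.49 (edgeR adjusted p = 0.042). The histone variant genes hcp-3, encoding CENP-A, and cpar-1, its relative, fell, with log2 fold changes of −3.22 and −4.36 (edgeR adjusted p = 0.040 and 0.048). Reads could have been divided between these related genes, so their separate values are uncertain, and cpar-1 had 0, 40 and 0 counts in intestinal replicates 1, 2 and 3. The centromere licensing gene knl-2 was not called, with −3.02 (edgeR adjusted p = 0.062), and was called with the replicate block, at −2.72 (edgeR adjusted p = 0.037). Leaving out non-intestinal replicate 3 brought its log2 fold change to −1.48 (edgeR adjusted p = 0.39), and leaving out intestinal replicate 3 to −3.82 (edgeR adjusted p = 0.039).

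The remaining subunits of the MIS-12 and NDC-80 complexes and of the KNL-1 partner were not called. The MIS-12 complex genes kbp-1 and kbp-2 had log2 fold changes of −2.78 and −1.83 (edgeR adjusted p = 0.25 and 0.27). For kbp-3 and kbp-4, the SPC25 and SPC24 counterparts of the NDC-80 complex, the values were −0.58 and −2.37 (edgeR adjusted p = 0.64 and 0.21). The KNL-1 binding gene kbp-5 had −1.96 (edgeR adjusted p = 0.26). Counts of kbp-1, kbp-2, kbp-4 and kbp-5 were 0, 0, 0 and 1 in intestinal replicate 3. They were 0, 21, 5 and 2 in non-intestinal replicate 3, so the lack of a call does not show equal levels. Levels of kbp-3 were 9.69, 9.13 and 7.99 CPM in intestinal replicates 1, 2 and 3, against 19.2, 14.9 and 5.96 CPM in non-intestinal replicates 1, 2 and 3. Its groups overlapped, as did those of its complex partner ndc-80, which had −3.08 and was not called (edgeR adjusted p = 0.0501). The difference between these fold changes was not tested.

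Products of the corona genes bring dynein and the checkpoint proteins to unattached kinetochores. The gene zwl-1 fell by 3.54 ± 0.94 on the log2 scale (standard error, adjusted p = 0.022 by edgeR). Its levels were 3.07, 17.9 and 0.799 CPM in intestinal replicates 1, 2 and 3, against 98.4, 81.6 and 90.0 CPM in non-intestinal replicates 1, 2 and 3. Its complex partners rod-1 and czw-1 were not called, with −2.80 ± 1.02 and −0.998 ± 0.60 (standard error, adjusted p = 0.077 and 0.27 by edgeR). The differences between these fold changes were not tested. The dynein adaptor gene spdl-1 had −1.95 (edgeR adjusted p = 0.055) and was called with the replicate block, at −2.04 (edgeR adjusted p = 0.046). It was called in 0 of the 6 fits that left out 1 library, with edgeR adjusted p up to 0.20. The dynein regulator nud-2 was the 1 gene of this list with a positive value, 0.24 (edgeR adjusted p = 0.78), which was −0.35 under library totals.

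Among genes that act at the kinetochore to microtubule interface, cls-2, a CLASP protein gene, fell by 2.27 (edgeR adjusted p = 0.019). The CENP-F-like genes hcp-1 and hcp-2, a related pair whose reads could have been divided, had −3.46 and −3.58, of which hcp-1 was called (edgeR adjusted p = 0.037 and 0.053). The SKA complex genes ska-1 and ska-3 had −0.31 and −2.48 (edgeR adjusted p = 0.80 and 0.098), and ska-1 was slightly positive in 2 fits, 0.04 when non-intestinal replicate 1 was left out and 0.15 when non-intestinal replicate 3 was. Without intestinal replicate 1, 0 genes of the list were called, and without non-intestinal replicate 1 or 2, 1 gene was. Without intestinal replicate 3 or non-intestinal replicate 3, 3 genes were called. Over all tested genes 198 were called lower without intestinal replicate 1, and 380 and 350 without non-intestinal replicates 1 and 2. Without intestinal or non-intestinal replicate 3 they were 506 and 520, beside 703 with every library.

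The checkpoint partners were 8 genes that the checkpoint acts on or that set its state, of which 7 were tested and gsp-2 was not analysed here. Values were negative for all 7, with a median of −2.80, and 4 were called lower, again beside 57.2% negative and 7.64% called lower over all tested genes. The gene fzy-1 encodes the CDC20 protein that the checkpoint inhibits. It had 4.23, 24.5 and 5.59 CPM in intestinal replicates 1, 2 and 3, against 104, 182 and 77.0 CPM in non-intestinal replicates 1, 2 and 3, and it fell by 3.37 ± 0.81 on the log2 scale (standard error, adjusted p = 0.015 by edgeR).

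Of the proteins that FZY-1 activity leads to, ify-1, the securin gene, fell by 2.12 (edgeR adjusted p = 0.039). The separase gene sep-1 had −3.03 (edgeR adjusted p = 0.071) and was called with the replicate block, at −3.55 (edgeR adjusted p = 0.038). It was called in 1 of the 6 fits that left out 1 library, with edgeR adjusted p up to 0.21. The polo kinase gene plk-1 and the checkpoint remodelling gene pch-2 fell, with −2.80 and −3.19 (edgeR adjusted p = 0.039 and 0.032). The gene cmt-1, which encodes the cofactor of PCH-2, had −1.98 (edgeR adjusted p = 0.12). The phosphatase gene gsp-1, whose product has many roles outside division, had −0.49 (edgeR adjusted p = 0.49), near the median of all tested genes. Without intestinal replicate 1 or non-intestinal replicate 2, 0 genes of this list were called, without non-intestinal replicate 1, 1 was, and without non-intestinal replicate 3, 2 were. Over all tested genes 198, 350, 380 and 520 were called lower in these fits, in that order, beside 703 with every library.

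Of the marker lists of other cell types, the sums of the germline list and of the epidermal and seam list were lower in every intestinal library. The 10 germline markers summed to between 179 and 419 CPM in intestinal libraries and to between 1620 and 2120 CPM in non-intestinal libraries, with 8 of 9 tested markers called lower beside 7.64% of all tested genes. The primordial germ cell gene nos-2 had 0 counts in all intestinal libraries beside 0, 2 and 0 counts in non-intestinal replicates 1, 2 and 3. The 5 epidermal and seam markers in the table summed to between 46.3 and 81.4 CPM in intestinal libraries and to between 180 and 325 CPM in non-intestinal libraries. Of these 5 genes nhr-23 was called lower and elt-3 higher, with −3.47 and 2.18 on the log2 scale (edgeR adjusted p = 0.011 and 0.049). The sums of the 6 muscle markers overlapped, with 0 of 5 tested genes called, at 856 to 3140 CPM in intestinal and 1610 to 5030 CPM in non-intestinal libraries, and myo-3, a defining muscle gene, had at most 1 count in any library. Those of the 6 neuron markers also overlapped, at 230 to 738 CPM in intestinal and 327 to 388 CPM in non-intestinal libraries. None of these was called lower, and egl-21 was called higher, at 2.08 (edgeR adjusted p = 0.018). The part of these cell types in the levels of the kinetochore and checkpoint genes was not tested.

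**Figure D5:**
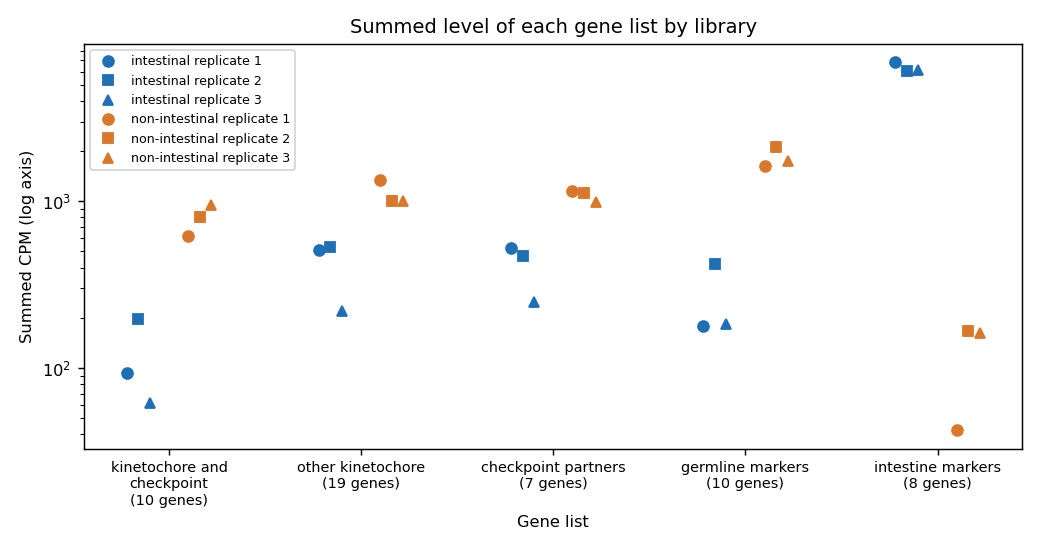
Summed CPM of each gene list in each library, on a log axis, with intestinal libraries left of non-intestinal ones. The kinetochore and checkpoint sum and the germline marker sum are both lower in every intestinal library, and the intestinal marker sum is higher in every one. The epidermal and seam, muscle and neuron lists are not drawn, and the epidermal and seam sum was also lower in every intestinal library.

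Genes whose profile over the 6 libraries was most like the mean of the 10 were found among 4596 other tested genes of above-median level. By Pearson's r on log2 CPM they were H04D03.2 (0.998), czw-1 (0.996), nduf-2.2 (0.995), pop-1 (0.995), mask-1 (0.995) and K11H3.4 (0.994). The libraries form the study's 2 groups and share their depth and scaling, so these values only rank genes. The most alike, H04D03.2, had 2.98, 6.66 and 0.799 CPM in intestinal replicates 1, 2 and 3, against 56.3, 25.6 and 49.9 CPM in non-intestinal replicates 1, 2 and 3. Like knl-1, ndc-80 and him-10, it was lowest of its group in non-intestinal replicate 2. The gene czw-1 stands in the kinetochore list above, and pop-1 encodes the TCF transcription factor of Wnt signalling.

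Some counts could hold reads of a neighbour, since the strand setting of the counting is not given in the sources used here. In the Ensembl annotation of WBcel235, the exons of 5 of the 10 genes overlapped an exon of a gene on the opposite strand. The largest overlap was 568 bases, between knl-3 and T10B5.3, a gene with 657, 513 and 474 CPM in intestinal replicates 1, 2 and 3, against 567, 719 and 987 CPM in non-intestinal replicates 1, 2 and 3. The 3′ end of knl-3 lay instead in an exon of T10B5.4, with 139 bases in common. T10B5.4 had 7, 49 and 0 counts in intestinal replicates 1, 2 and 3, against 0, 18 and 1 counts in non-intestinal replicates 1, 2 and 3. The 3′ end of san-1 lay in an exon of ZC328.3, with 163 bases in common. ZC328.3 went the other way, at 154, 103 and 99.1 CPM in intestinal replicates 1, 2 and 3, against 14.1, 12.5 and 1.63 CPM in non-intestinal replicates 1, 2 and 3 (log2 fold change 3.61, edgeR adjusted p = 0.0094).

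The 3′ end of ndc-80 shared 71 bases with ttr-39, which had at most 3 counts in any library. That of mis-12 shared 23 bases with Y47G6A.31. This neighbour had 1, 11 and 0 counts in intestinal replicates 1, 2 and 3, against 19, 75 and 25 counts in non-intestinal replicates 1, 2 and 3. Its log2 fold change of −4.34 (edgeR adjusted p = 0.057) had the direction of mis-12, and its part in the mis-12 counts was not tested. The exons of mdf-2 overlapped a tRNA gene and a non-coding RNA gene, neither analysed here. No exon overlap was annotated for knl-1, him-10, bub-1, bub-3 and mdf-1.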

How the data were processed

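Per the labels' protocols, RNA of sorted cell pools was barcoded at reverse transcription, amplified by in vitro transcription and sequenced from the 3′ end. The authors deposited 1 table of raw counts, without normalization. STARsolo 2.7.10a and the builds WBcel235 and ce11 are named in the submitters' processing notes; annotation, strand setting and use of molecular identifiers are not given in the sources used here. Counts may thus include amplification copies, and limits from counts of 0 cover counting error only.

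Of 15472 rows, 14605 were worm genes. The other rows, named RIT (825), spike-in RNA (41) and reporter (1), made up between 0.377% and 0.796% of each library and entered neither totals nor tests. Symbols came from RefSeq locus tags of WBcel235, which 14387 gene rows matched, and positions from Ensembl release 115 on the same assembly.

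Tests used edgeR 4.0.16 in R 4.3.3 (glmQLFit and glmQLFTest, robust, TMM, group as the only term) on the 9203 genes that passed filterByExpr at its minimum count (10) and minimum total (15). The common biological coefficient of variation was 0.731. Standard errors are the absolute log2 fold change over the root of its F value. CPM used TMM-scaled totals, and log2 CPM had a prior count of 3. Ratios had 0.5 counts added, or 2 as an alternative.

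Same-numbered libraries of the groups had deviations from their group means that correlated across genes at 0.278, 0.157 and 0.279. Libraries of unlike number correlated at −0.256 to 0.0695. Replicate 3 was the shallowest in both groups, so shared depth and pairing cannot be told apart here. The numbers come from the sample titles. The main fit was unpaired, and a fit with the replicate block was an alternative. No 2 libraries of a group agreed within counting noise (chi-square over its degrees of freedom, 34.8 to 195). The labels give all libraries as biological replicates without naming separate cultures, so p-values measure the spread between these libraries.

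The 10 genes, the other lists and the tests were chosen with earlier results of these data known. The named genes are these 10, the genes of the kinetochore and checkpoint partner lists, elt-2, and the 6 genes of highest Pearson's r with the mean profile. Overlapping neighbours and single markers were named after their values were seen. Alternatives were RLE size factors, library totals, DESeq2 1.42.0, no low count filter, at least 10 counts in 3 libraries, no robust estimation, the replicate block, downsampling to 1222704 counts, leaving out each library, and leaving out replicate 3 of both groups.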

Additional observations from a re-analysis of the deposited data

How the results depend on the processing

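The number of the 10 genes called lower was 4, and it was 7 with RLE size factors, 8 with library totals, 9 with DESeq2 and 7 without a low count filter. When single libraries were left out it lay between 1 (intestinal replicate 1 left out) and 5 (intestinal replicate 2 left out). Over all tested genes 703 of 9203 were called lower, and 779 with RLE size factors, 1329 with library totals and 1379 with DESeq2. That number was 951 of 14605 without a low count filter, 198 of 9020 without intestinal replicate 1 and 647 of 8969 without intestinal replicate 2. For the other kinetochore genes, 6 became 11 with library totals and 11 with DESeq2, and ranged from 0 to 8 over the fits that left out 1 library. For the checkpoint partners 4 ranged from 0 to 4 there. Of all genes 1949 were called, 3057 with DESeq2, and from 986 (without intestinal replicate 1) to 1913 when 1 library was left out. Of all calls 63.9% were towards higher levels in intestinal cells with TMM and 44.4% with library totals, which shifted the median of all tested genes by −0.51 on the log2 scale. Relative to that median the 10 genes stood at −2.66 with TMM and −2.64 with library totals. All 148 values of the 10 genes under the 15 alternatives were negative. The gene ska-1 changed sign when non-intestinal replicate 1 (0.04) or 3 (0.15) was left out, within a range of −0.56 to 0.15. The gene nud-2 changed sign with library totals (−0.35) and without intestinal replicate 1 (−0.09), and ranged from −0.09 to 0.78 when 1 library was left out. The cause of these changes was not tested.

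With the replicate block 6 of the 10 genes, 8 of the 19 other kinetochore genes and 5 of the 7 checkpoint partners were called, all as lower. Over all 9203 tested genes 2299 were called, 906 as lower and 1393 as higher. Beyond mis-12, mdf-2, knl-2, spdl-1 and sep-1 the block changed no call of a named kinetochore or checkpoint gene. Over replicate pairs the ratio differences had the same values, 0.55, 0.65, −1.40 and 2.58, where 3 pairs cannot give an exact p below 0.25. With 2 counts added they were 0.11, 0.22, −1.02 and 2.44. Over the fits that left out 1 library these ranged from −0.25 to 1.08, −0.36 to 1.27, −2.14 to −0.83 and 1.05 to 3.79. After downsampling 8 of the 10 genes could be tested.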
